A study of Mus musculus with 12 samples.

Results

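The genes described here mostly encode the cytosolic translation initiation, elongation and release factors of mouse T cells. They were taken by symbol: every gene with a probe set annotated to a single symbol starting with Eif1 to Eif6, Eef1, Eef2, Etf1 or Gspt, leaving out the eIF2alpha kinases, the alpha subunit gene Eif2s1, Eef1e1 and the eIF4E-binding proteins. The rule gave 54 genes of 18193 measured. Their symbols bring in enzymes that modify these factors, such as the methyltransferase genes Eef1akmt1, Eef1akmt2, Eef1aknmt and Eef2kmt and the kinase gene Eef2k. Each gene is represented by its probe set with the highest mean, and 39 of the 54 have more than 1 such probe set. The rule used no measured difference between groups. The symbols Eef1g, Eif3j1 and Eif3j2 lie only on probe sets shared with other symbols, and Eif4g1, Eif1 and Eif3g were not analysed here.

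The study asked how halofuginone (HF) alters gene expression in T cells that are activated toward the Th17 fate. Purified CD4+ CD25- T cells from C57B/6J mice of Jackson labs were stimulated with anti-CD3 and anti-CD28 antibodies and cultured with TGFb and IL-6. They received 10 nM HF or 10 nM MAZ1310, an inactive derivative of HF, and were collected after 3 h or 6 h. Each of the 4 groups (MAZ1310 3 h, HF 3 h, MAZ1310 6 h, HF 6 h) has 3 biological replicates on 1 array each, 12 arrays in all. Every group carries the antibodies and both cytokines, and no unstimulated or untreated cells were analysed here. These are bulk RNA values, in which fewer cells of a type and less RNA per cell cannot be told apart.

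Translation starts when the GTP-binding factor eIF2 brings initiator methionyl-tRNA to the small ribosomal subunit, on which eIF3, eIF1 and eIF1A assemble, while eIF4F binds the mRNA cap and opens the leader. After each start eIF2 must be recharged with GTP by its exchange factor eIF2B, and the elongation factors eEF1A and eEF2 then carry the ribosome along the message until the release factors free the chain. HF is known as an inhibitor of the prolyl-tRNA synthetase activity of EPRS. The uncharged tRNA that builds up activates the kinase GCN2, which phosphorylates eIF2alpha and so turns eIF2 into an inhibitor of eIF2B. Many translation factor mRNAs are also made in larger amounts when a T cell is activated.

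Within each group the arrays correlated at 0.992 to 0.997 over all genes, and the arrays had median log2 values of 6.60 to 6.68. All 7 T cell marker genes lay in the brightest 25% of genes, and none of the 17 measured markers of other cell types did. The brightest of these 17 was Cd74, of MHC class II presenting cells, close below the limit at percentile 73.7. At 6 h, 6 of the 7 T cell markers tested (Cd3d, Cd3e, Cd3g, Cd4, Cd5 and Cd28) were lower with HF. The summed intensity of the 7 was 13183 to 15459 with HF against 18496 to 19983 with MAZ1310 at 6 h, and 16531 to 20689 against 16903 to 23204 at 3 h; none of the 17 measured markers of other cell types was called with HF at either time. Il2ra, the gene of CD25, was bright in these cells labelled CD25- and then activated: its intensity was 4470 to 6723 over the 12 arrays, with no call for HF at either time. The 3' minus 5' difference of the actin control probe sets, a sign of RNA integrity, was higher with HF in 3 of 3 same-numbered pairs at both times (group means 1.25 against 1.03 at 3 h and 1.07 against 0.864 at 6 h). It was highest in the array numbered 2 of each group. The Y-linked member Eif2s3y separated the same arrays: it read 3.34 to 4.07 in the 4 arrays numbered 2 and 9.32 to 10.25 in the other 8. The Y-linked genes Kdm5d and Uty, looked up after this was seen, were lower in those 4 arrays as well, and Xist was higher (12.43 to 12.78 against 7.22 to 7.65).

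Exposure to HF changed a minority of these genes. At 3 h, 9 of the 54 were called at an adjusted p under 0.05 (limma, Benjamini-Hochberg over all 18193 genes), 2 higher and 7 lower. Of all genes 9.49% were called in the same comparison, 2.83% higher and 6.66% lower. At 6 h the calls were 16, with 5 rises and 11 falls, beside 17.0% of all genes, 5.22% higher and 11.7% lower. The members are mostly bright genes, and bright genes were called more often: of the 44 members in the brightest 25% of genes, 8 were called at 3 h and 12 at 6 h (18.2% and 27.3%), beside 18.3% and 31.0% of all 4549 such genes. The share of these 44 that HF changed was thus close to that of all bright genes. Members below this limit, Eif5a2 among them, are not in that comparison. The median log2 change of the 54 was -0.10 at 3 h and -0.03 at 6 h, against 0.03 and 0.02 over all genes. No gene of the 54 changed 2-fold at 3 h and 1, Eif5a2, did at 6 h. Some counts depended on single arrays. The 7 lower calls at 3 h became 4 without any 1 of the 3 HF 3 h arrays and 13 without the first MAZ1310 3 h array, and the 5 higher calls at 6 h became 3 without the first HF 6 h or the first MAZ1310 6 h array. Without the 4 arrays numbered 2, Eif2s2 was called higher and Eif2b4 and Eif5a2 lower at 3 h, and at 6 h 3 genes were called higher and 7 lower. The calls lost were those of Eif2a, Eif2b1, Eif3b, Eif3c, Eif3l and Eif4h at 3 h and of Eif1ad, Eif2b1, Eif2d, Eif3d, Eif3f and Eif4h at 6 h (adjusted p 0.0564 to 0.206, limma). All genes then had 279 higher and 378 lower calls at 3 h, against 514 and 1212, and 560 and 1177 at 6 h, against 949 and 2136.

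The calls are given next by complex, each of 2 to 11 genes placed there by symbol. No complex was tested against the others or against the share of bright genes called (18.3% at 3 h and 31.0% at 6 h). The beta subunit gene of eIF2 rose, and eIF3 genes changed in both directions. Genes of the exchange factor eIF2B, of eIF2A and eIF2D, of the helper eIF4H and of the second eIF5A fell. At 6 h an eIF1 relative and 3 enzymes that methylate eEF1A were called as well. No gene of the release factors was called at either time, and of the 11 genes of eIF4F and its helpers 1 was. Both Eif2s2 and Eif3c were called higher at both times. The genes Eif2b1, Eif2b4, Eif3l, Eif4h and Eif5a2 were called lower at both times, and no gene was called in opposite directions. The remaining 36 genes were called at neither time with the probe sets used.

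**Figure D1:**
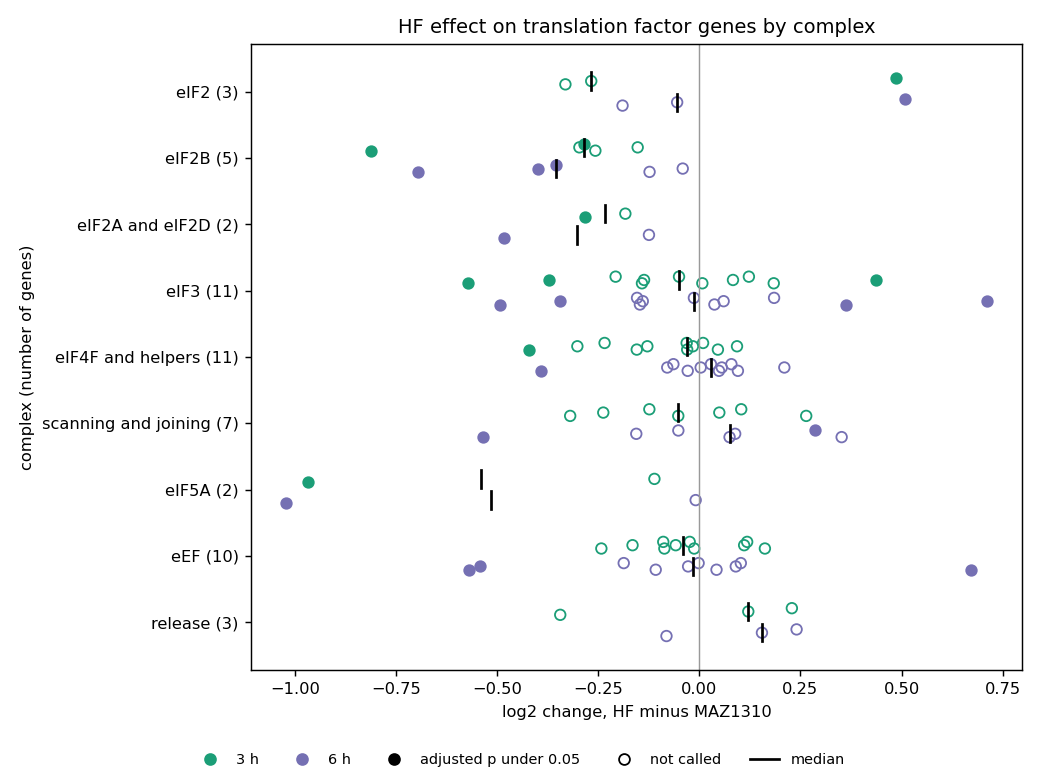
HF effect on the 54 translation factor genes by complex. Each point is 1 gene, placed on the x axis by its log2 change (HF minus MAZ1310) at 3 h (green) or 6 h (purple); filled points passed an adjusted p of 0.05 and the black bar is the median of the complex. All 5 eIF2B genes lie left of 0 at both times, and of the genes of eIF4F and its helpers Eif4h alone is filled, at -0.42 and -0.39, with Eif4b, not called, at -0.30 at 3 h.

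The DNA just upstream of 4 of these genes is shown for reference, the pair called higher at both times and the pair with the largest falls at 3 h. Each run is the 250 bases before the annotated start, from RefSeq on GRCm38.p6, 5′ to 3′ on the strand of the gene. Capitals mark the motifs CACGTG (the E-box bound by MYC and related factors), CCAAT (a common promoter element) and TGATGNAAN (the element bound by ATF4 with C/EBP partners), searched on both strands.
Eif2s2, chr2:154892907-154893156, minus strand: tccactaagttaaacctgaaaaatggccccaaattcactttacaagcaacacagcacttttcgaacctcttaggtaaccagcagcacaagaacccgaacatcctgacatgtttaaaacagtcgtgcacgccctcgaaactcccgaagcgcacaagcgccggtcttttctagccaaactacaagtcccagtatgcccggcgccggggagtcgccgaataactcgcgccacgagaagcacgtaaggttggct
Eif3c, chr7:126566367-126566616, minus strand: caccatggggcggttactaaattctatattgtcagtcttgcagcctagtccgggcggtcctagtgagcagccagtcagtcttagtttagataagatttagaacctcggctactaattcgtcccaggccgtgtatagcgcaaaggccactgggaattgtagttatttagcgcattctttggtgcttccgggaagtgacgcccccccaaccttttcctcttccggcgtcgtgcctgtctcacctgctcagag
Eif2b4, chr5:31193140-31193389, minus strand: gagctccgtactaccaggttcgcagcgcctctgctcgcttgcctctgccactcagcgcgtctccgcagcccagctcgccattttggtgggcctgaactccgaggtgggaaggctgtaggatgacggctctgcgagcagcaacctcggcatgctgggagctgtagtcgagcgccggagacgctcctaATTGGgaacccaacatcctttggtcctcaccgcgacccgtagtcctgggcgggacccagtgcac
Eif5a2, chr3:28781027-28781276, plus strand: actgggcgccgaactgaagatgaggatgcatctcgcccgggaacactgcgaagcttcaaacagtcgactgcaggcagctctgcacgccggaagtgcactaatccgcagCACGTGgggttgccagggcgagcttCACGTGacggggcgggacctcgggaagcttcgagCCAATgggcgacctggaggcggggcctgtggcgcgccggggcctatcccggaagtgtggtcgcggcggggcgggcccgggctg
No letters of the 3 motifs were found in the Eif2s2 and Eif3c windows. The Eif2b4 window holds 1 CCAAT on the opposite strand, and the Eif5a2 window holds 2 CACGTG and 1 CCAAT.

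The eIF2 factor is a trimer, and 2 of its 3 subunits are represented here. Eif2s2, the beta subunit, which contacts eIF5 and eIF2B, was higher with HF at both times. Its log2 values at 3 h were 13.02, 13.06 and 13.19 with MAZ1310 and 13.56, 13.55 and 13.61 with HF. At 6 h they were 13.10, 12.93 and 13.04 with MAZ1310 and 13.59, 13.50 and 13.52 with HF. All 6 HF arrays lay above all 6 MAZ1310 arrays, and the level with MAZ1310 changed by -0.06 between the times. Within a time the groups lay apart in 22.8% of all genes at 3 h and 36.8% at 6 h, in either direction. The share of all genes with 6 arrays apart from 6 was not counted. The log2 change was 0.49 ± 0.08 (SE, n = 3 per group; adjusted p = 0.00110, limma) at 3 h and 0.51 ± 0.08 (adjusted p = 0.000292, limma) at 6 h, that is 1.40-fold and 1.42-fold. The 6 probe sets of Eif2s2 were all higher at both times and all called, by 0.49 to 0.91 at 3 h and 0.49 to 1.21 at 6 h, so the probe set used here gave nearly the smallest change of the 6.

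The gamma subunit, which binds GTP and the initiator tRNA, has an X-linked gene, Eif2s3x, and a Y-linked copy, Eif2s3y. Eif2s3x was not called at either time. Its log2 values at 3 h were 12.29, 12.69 and 12.78 with MAZ1310 and 12.21, 12.50 and 12.25 with HF, and at 6 h 12.40, 12.71 and 12.37 with MAZ1310 and 12.33, 12.64 and 12.34 with HF. The array numbered 2 was the highest of its group in 3 of 4 groups, and the groups overlapped at both times. The change was -0.27 (95% interval -0.56 to 0.02; adjusted p = 0.276, limma) at 3 h and -0.05 (-0.35 to 0.24; adjusted p = 0.854, limma) at 6 h. For Eif2s3y the arrays numbered 2 read 3.34 to 4.07, against 9.32 to 10.25 in the others, which inflated the spread. Y-linked genes were lower and Xist higher in these arrays, as given above. With the replicate number as a block its change was -0.33 (95% interval -0.63 to -0.03; adjusted p = 0.147, limma) at 3 h and -0.19 (-0.49 to 0.11) at 6 h. Both averages include the pair numbered 2, whose low values say little about HF. At 3 h the pairs differed by -0.22, -0.59 and -0.17, the largest being that pair, at 3.34 against 3.93. The other probe set of Eif2s3y, with a mean log2 value of 3.49, was called higher at 6 h (0.31, adjusted p = 0.0275, limma over all single-symbol probe sets). With the probe sets used, the beta subunit gene alone of the eIF2 genes was called, without a test of the subunits against each other.

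eIF2B, the 5-subunit exchange factor that recharges eIF2, had calls in its regulatory subunits, all of them lower. All 5 changes were below 0 at both times with the probe sets used, and 2 were called at 3 h (Eif2b1 and Eif2b4) and 3 at 6 h (Eif2b1, Eif2b2 and Eif2b4). Of all bright genes 18.3% and 31.0% were called, and the 5 genes were not tested as a set. The median change of the 5 was -0.28 at 3 h and -0.36 at 6 h.

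**Figure D2:**
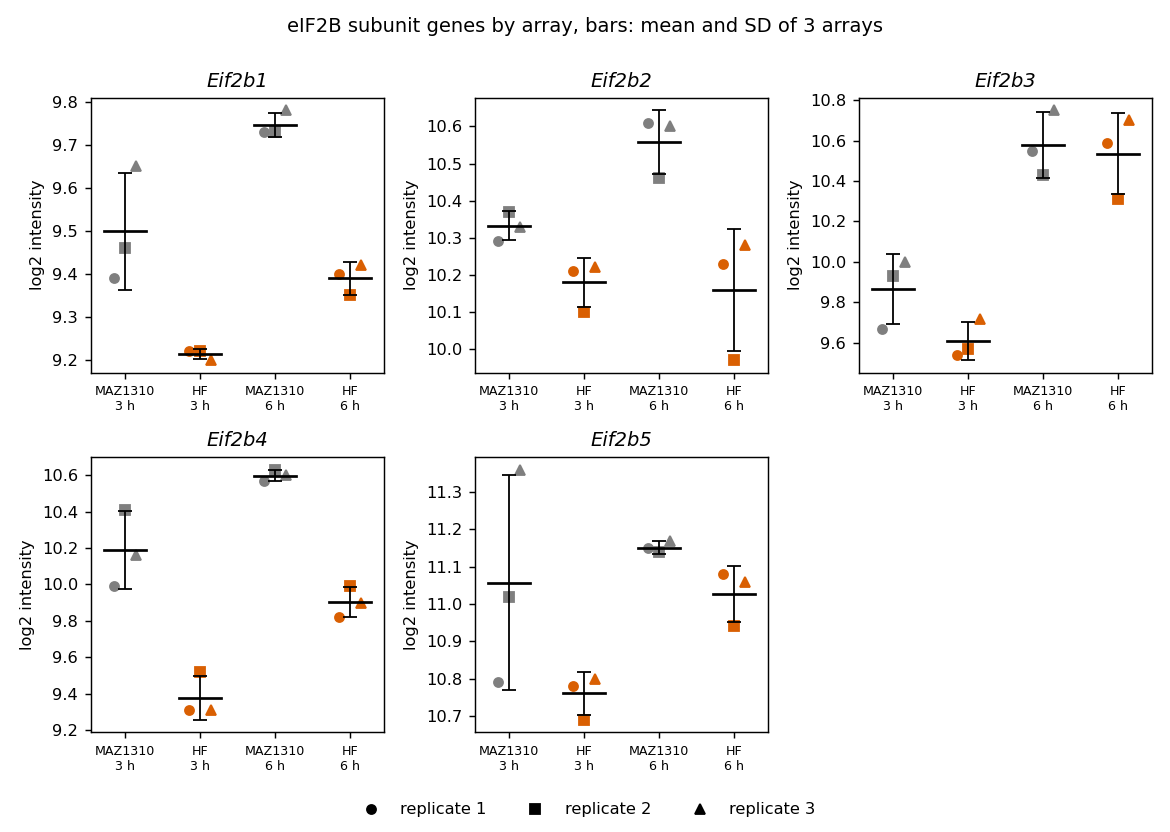
The 5 eIF2B subunit genes in all 12 arrays. The y axes give log2 intensity, each with its own range; grey points are MAZ1310 and orange points HF, the marker shape gives the replicate number, and bars give the mean and SD of 3 arrays. For Eif2b4 every HF array lies below every MAZ1310 array of the same time, and Eif2b3 rises from 3 h to 6 h under both compounds.

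Eif2b4, the delta subunit, which belongs to the regulatory part that senses phosphorylated eIF2alpha, fell the most. It read 9.99, 10.41 and 10.16 with MAZ1310 and 9.31, 9.52 and 9.31 with HF at 3 h. It read 10.57, 10.63 and 10.60 with MAZ1310 and 9.82, 9.99 and 9.90 with HF at 6 h. The gene rose between the times under both compounds, and the HF arrays stayed below the MAZ1310 arrays at each. Groups lay apart in 22.8% of all genes at 3 h and 36.8% at 6 h. The log2 change was -0.81 ± 0.10 (adjusted p = 0.000157, limma) at 3 h and -0.69 ± 0.10 (adjusted p = 0.000191, limma) at 6 h, or 0.570 and 0.618 of the MAZ1310 level.

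Eif2b1, the alpha subunit of the same regulatory part, was lower by less. Its values at 3 h were 9.39, 9.46 and 9.65 with MAZ1310 and 9.22, 9.22 and 9.20 with HF, and at 6 h 9.73, 9.73 and 9.78 with MAZ1310 and 9.40, 9.35 and 9.42 with HF. The groups did not overlap at either time, as in 22.8% of all genes at 3 h and 36.8% at 6 h. The change was -0.28 ± 0.08 (adjusted p = 0.0355, limma) at 3 h, a call lost in 7 of the 12 fits that left out 1 array (adjusted p 0.0534 to 0.104 without any HF 3 h array, the second or the third MAZ1310 3 h array, or the first array of HF 6 h or MAZ1310 6 h, limma), and -0.36 ± 0.08 (adjusted p = 0.00514, limma) at 6 h, a call kept in all 12 but lost without the arrays numbered 2 (-0.34, adjusted p = 0.0874, limma). Eif2b2, the beta subunit, also of the regulatory part, changed by -0.15 (95% interval -0.34 to 0.04; adjusted p = 0.358, limma) at 3 h and by -0.40 ± 0.09 (adjusted p = 0.00527, limma) at 6 h. Its 6 h values were 10.61, 10.46 and 10.60 with MAZ1310 and 10.23, 9.97 and 10.28 with HF, so that the groups lay apart.

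The catalytic part of eIF2B is made of the gamma and epsilon subunits, Eif2b3 and Eif2b5, and neither was called. Eif2b5, which holds the exchange activity, read 10.79, 11.02 and 11.36 with MAZ1310 and 10.78, 10.69 and 10.80 with HF at 3 h. The spread of the MAZ1310 arrays was wide there, and 1 of them lay within the range of the HF arrays. Its change was -0.30 (95% interval -0.54 to -0.06; adjusted p = 0.126, limma) at 3 h, or -0.43 (adjusted p = 0.0121) without that array, the first, and -0.12 (-0.36 to 0.12; adjusted p = 0.555, limma) at 6 h. Eif2b3 changed by -0.26 (-0.51 to -0.01; adjusted p = 0.216, limma) at 3 h and by -0.04 (-0.29 to 0.21; adjusted p = 0.876, limma) at 6 h. The other, dimmer probe set of Eif2b5 lay above 0, at 0.22 and 0.07, and was not called. The intervals of Eif2b3 and Eif2b5 at 3 h hold falls as large as that of Eif2b1.

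The single-chain factors eIF2A and eIF2D can deliver initiator tRNA outside the eIF2 route. Eif2d fell at 6 h, where it read 9.35, 9.47 and 9.28 with MAZ1310 and 8.86, 8.85 and 8.95 with HF, a change of -0.48 ± 0.09 (adjusted p = 0.00147, limma). At 3 h its change was -0.18 (95% interval -0.38 to 0.01; adjusted p = 0.263, limma). All 6 of its probe sets were lower at 6 h, and 2 of the 6 were called. The call depends on the probe set: it was -0.27 (adjusted p = 0.0922, limma) with the next brightest, -0.22 (adjusted p = 0.0508) with the mean of them all and -0.05 (adjusted p = 0.814) when probe sets with a suffix, which can detect several transcripts, were left out. Eif2a read 9.84, 9.81 and 10.05 with MAZ1310 and 9.64, 9.57 and 9.64 with HF at 3 h. That difference, -0.28 ± 0.08, was just past the threshold (adjusted p = 0.0440, limma) and lost its call in 9 of the 12 fits without 1 array (adjusted p 0.0512 to 0.133, limma), all but those without the first or second MAZ1310 3 h or the second MAZ1310 6 h array. At 6 h Eif2a changed by -0.12 (95% interval -0.30 to 0.05; adjusted p = 0.385, limma).

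eIF3, the largest initiation factor, binds the small subunit and has many subunits, among them Eif3a, Eif3b and Eif3c. Of its 11 measured genes, 3 were called at 3 h (1 rise, 2 falls) and 4 at 6 h (2 rises, 2 falls). That is 27.3% and 36.4%, beside 18.3% and 31.0% of all bright genes, and was not tested. The median change of the 11 was -0.05 and -0.01, with calls in both directions.

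Eif3c, a core subunit that contacts eIF1 and eIF5, rose the most of all 54 genes at 6 h. It read 12.84, 12.98 and 13.15 with MAZ1310 and 13.33, 13.55 and 13.40 with HF at 3 h. It read 12.94, 12.98 and 12.99 with MAZ1310 and 13.68, 13.70 and 13.66 with HF at 6 h. The level with MAZ1310 changed by -0.02 between the times, and the HF arrays lay above it at each (groups apart in 22.8% of all genes at 3 h and 36.8% at 6 h). The change was 0.44 ± 0.09 (adjusted p = 0.00519, limma) at 3 h and 0.71 ± 0.09 (adjusted p = 3.99e-05, limma) at 6 h, or 1.35-fold and 1.64-fold. All 4 of its probe sets were called higher at both times, by 0.39 to 1.32 at 3 h and 0.69 to 0.94 at 6 h.

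Eif3l, a subunit next to Eif3k, fell at both times. It read 11.79, 11.99 and 12.23 with MAZ1310 and 11.43, 11.36 and 11.49 with HF at 3 h, and 12.20, 12.14 and 12.21 with MAZ1310 and 11.72, 11.62 and 11.73 with HF at 6 h. The change was -0.57 ± 0.10 (adjusted p = 0.00162, limma) at 3 h and -0.49 ± 0.10 (adjusted p = 0.00217, limma) at 6 h, but its next brightest probe set changed by -0.22 at 3 h (adjusted p = 0.172, limma over all single-symbol probe sets) and by 0.09 at 6 h (adjusted p = 0.598). The call on Eif3l therefore depends at both times on which probe set is read. The third probe set of Eif3l was called lower at both times.

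Eif3b was called lower at 3 h, at 11.86, 12.01 and 12.33 with MAZ1310 and 11.71, 11.66 and 11.71 with HF. The change of -0.37 ± 0.10 (adjusted p = 0.0287, limma) lost its call without the third MAZ1310 3 h array or any 1 of the HF 3 h arrays (adjusted p 0.0677 to 0.0894, limma). At 6 h it was -0.15 (95% interval -0.36 to 0.07; adjusted p = 0.400, limma). Eif3d and Eif3f are named outside the naming rule and after their values were seen. Eif3d, which can bind the cap, was called higher at 6 h by 0.36 ± 0.09 (adjusted p = 0.0119, limma). Eif3f was called lower at 6 h (-0.34 ± 0.09, adjusted p = 0.0132, limma). The other 6 eIF3 genes were called at neither time with the probe sets used. Of the 3 probe sets of Eif3h, 1 was called at 3 h (range of the 3, -0.30 to 0.08).

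eIF4F joins the cap-binding protein Eif4e, the helicase Eif4a1 and a scaffold of the eIF4G family. The changes of Eif4e and Eif4a1 were small. Eif4e changed by -0.03 (95% interval -0.27 to 0.21; adjusted p = 0.906, limma) at 3 h and by 0.10 (-0.14 to 0.33; adjusted p = 0.661, limma) at 6 h. Eif4a1 changed by 0.05 (-0.14 to 0.23; adjusted p = 0.812, limma) and by 0.08 (-0.10 to 0.26; adjusted p = 0.631, limma). These intervals leave out a change of 0.5 on the log2 scale in either direction. Eif4a3, a relative that is not a part of eIF4F, is represented by a dim probe set alone, and its values say little. Eif4e2, Eif4enif1 and Eif4g2 are likewise in the group by symbol.

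Eif4h, which stimulates the helicase as its partner eIF4B does, was the only one called of the 11 genes placed under eIF4F and its helpers. At 3 h it read 12.67, 12.79 and 12.97 with MAZ1310 and 12.34, 12.39 and 12.43 with HF. At 6 h it read 12.80, 12.87 and 12.82 with MAZ1310 and 12.45, 12.48 and 12.38 with HF. All 6 HF arrays lay below all 6 MAZ1310 arrays, a separation that was not counted over all genes. Within a time the groups lay apart in 22.8% of all genes at 3 h and 36.8% at 6 h. The change was -0.42 ± 0.08 (adjusted p = 0.00462, limma) at 3 h and -0.39 ± 0.08 (adjusted p = 0.00376, limma) at 6 h. Of its 6 probe sets, 3 were called lower at each time and the others were not called. With suffixed probe sets left out the change of Eif4h was -0.17 (adjusted p = 0.268, limma) at 3 h and -0.14 (adjusted p = 0.358, limma) at 6 h.

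The next group was made by symbol. Apart from Eif6 and Eif1ad, its genes belong to factors that scan for the start codon or join the large subunit. Of its 7 genes none was called at 3 h, where the largest change was that of Eif1b, and 2 were called at 6 h. Those 2 are 28.6% of the group, beside 31.0% of all bright genes. Eif1b, a close relative of eIF1, which guards start codon choice, read 10.59, 10.74 and 10.25 with MAZ1310 and 10.21, 10.19 and 10.22 with HF at 3 h. The third MAZ1310 array lay near the HF arrays, and the change was -0.32 ± 0.10 (adjusted p = 0.0645, limma; 0.0480 with the replicate number as a block). Without that array it was -0.46 (adjusted p = 0.00210, limma). At 6 h Eif1b read 10.81, 10.84 and 10.82 with MAZ1310 and 10.31, 10.23 and 10.32 with HF, a change of -0.53 ± 0.10 (adjusted p = 0.00156, limma). Eif1ad, an eIF1A domain gene named here after its values were seen, was higher at 6 h by 0.29 ± 0.09 (adjusted p = 0.0340, limma). With the block, Eif1a, the factor that works beside eIF1, was called higher at 6 h as well (0.35, adjusted p = 0.00937, limma, against 0.0595 without it). Eif5, which makes eIF2 hydrolyse its GTP, changed by 0.05 (95% interval -0.12 to 0.22; adjusted p = 0.781, limma) at 3 h and by 0.07 (-0.10 to 0.25; adjusted p = 0.633, limma) at 6 h.

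**Figure D3:**
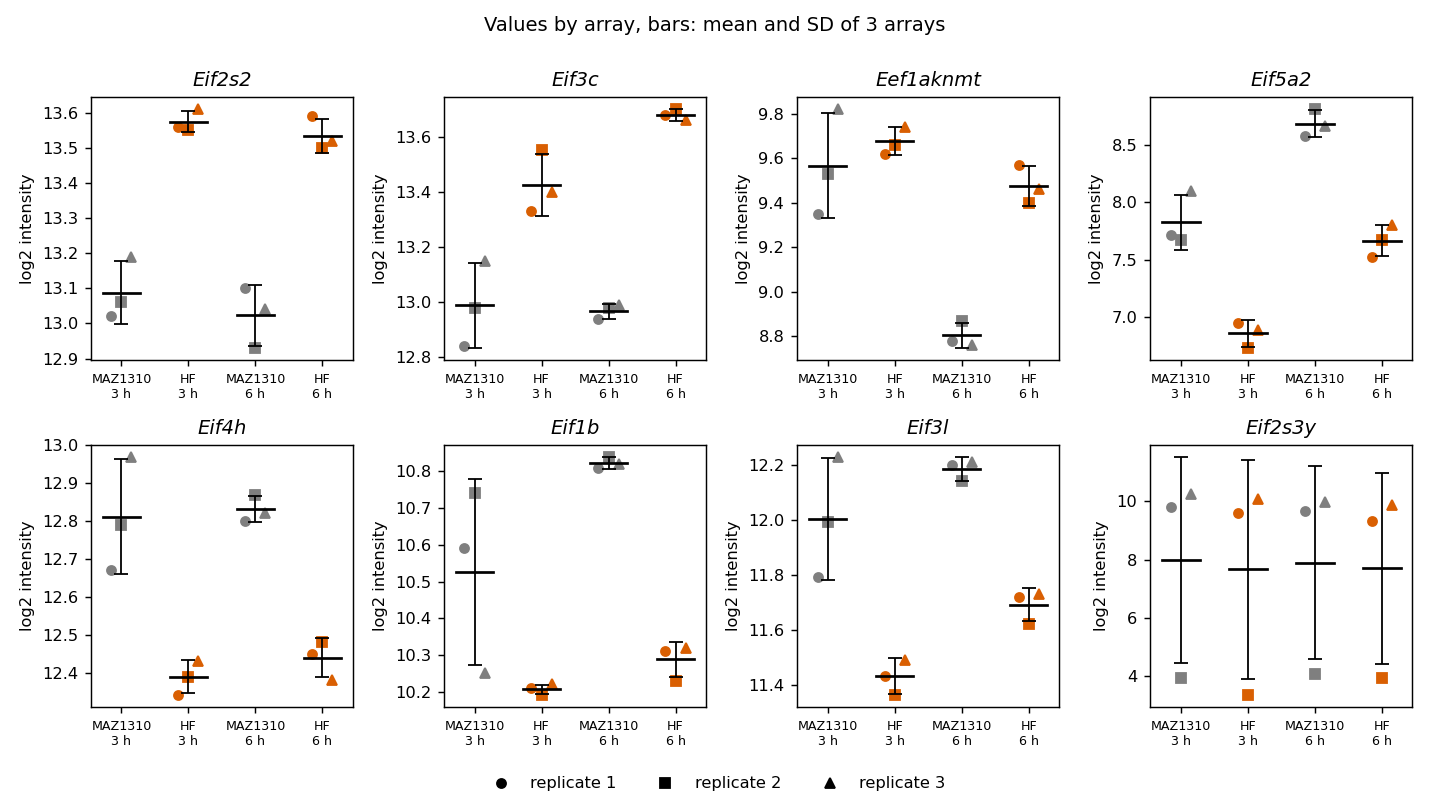
Values of 8 translation factor genes in all 12 arrays. The y axes give log2 intensity, each with its own range; grey points are MAZ1310 and orange points HF, the marker shape gives the replicate number, and bars give the mean and SD of 3 arrays. Eif2s2 and Eif3c lie higher with HF at both times, Eif5a2 and Eif4h lower, Eef1aknmt differs at 6 h, and Eif2s3y reads below 5 in the arrays numbered 2 and above 9 in the rest.

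eIF5A helps ribosomes through stretches such as consecutive prolines, and is active once a lysine has been turned into hypusine by the enzymes Dhps and Dohh. Of its 2 genes, the second, Eif5a2, had the largest fall of all 54 at both times. It read 7.71, 7.67 and 8.10 with MAZ1310 and 6.95, 6.73 and 6.89 with HF at 3 h. It read 8.58, 8.81 and 8.66 with MAZ1310 and 7.52, 7.67 and 7.80 with HF at 6 h. The gene rose with time under both compounds, and the HF arrays at 6 h overlapped the MAZ1310 arrays at 3 h. The change was -0.97 ± 0.12 (adjusted p = 0.000107, limma) at 3 h and -1.02 ± 0.12 (adjusted p = 1.8e-05, limma) at 6 h, or 0.512 and 0.493 of the MAZ1310 level. Its other probe set was called lower as well, at -0.39 and -0.42. Eif5a, the gene with the main role in most cells, was not called: its changes were -0.11 (95% interval -0.27 to 0.05; adjusted p = 0.424, limma) and -0.01 (-0.17 to 0.15; adjusted p = 0.960, limma).

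The enzymes that make hypusine were among 30 further genes of the pathway listed beside the members. Dohh was called lower at both times (-0.39 ± 0.08, adjusted p = 0.00506, and -0.36 ± 0.08, adjusted p = 0.00426, limma). Dhps was called lower at 6 h (-0.33 ± 0.10, adjusted p = 0.0406, limma) and changed by -0.09 (95% interval -0.31 to 0.14) at 3 h. Both are named here after their values were seen, for their role beside Eif5a2.

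With the probe sets used, the elongation factor genes themselves were not called. Over all single-symbol probe sets, 1 of the 4 of Eef1d was called at 6 h (range of the 4, -0.32 to 0.11). For Eef2k, the kinase of eEF2, it was 1 of 3 at 6 h (range -0.51 to 0.01). Eef1a1, which delivers aminoacyl-tRNA, changed by -0.06 (95% interval -0.22 to 0.10; adjusted p = 0.707, limma) at 3 h and by -0.00 (-0.16 to 0.16; adjusted p = 0.992, limma) at 6 h. Eef2, which moves the ribosome on, changed by -0.24 (-0.44 to -0.05; adjusted p = 0.120, limma) and by -0.19 (-0.38 to 0.01; adjusted p = 0.206, limma), and was lower in 3 of 3 pairs at each time. It was called at 3 h without the first MAZ1310 array (-0.32, adjusted p = 0.0330, limma) and at 6 h after cyclic loess (-0.23, adjusted p = 0.0395, limma). Its other probe set went the other way at 3 h (0.13), was at -0.19 at 6 h and was called at neither time. The share of all genes lower in 3 of 3 pairs was not counted. At 3 h Eef2 was the largest change among the 10 genes of the elongation group, none of which was called.

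With the probe sets used, the calls in this group at 6 h fell on 3 enzymes that methylate eEF1A, in both directions. That is 30% of its 10 genes, beside 17.0% of all genes and 31.0% of bright genes. Eef1aknmt, which methylates the N-terminus and a lysine of eEF1A, read 8.78, 8.87 and 8.76 with MAZ1310 and 9.57, 9.40 and 9.46 with HF at 6 h. At 3 h it had read 9.35, 9.53 and 9.82 with MAZ1310 and 9.62, 9.66 and 9.74 with HF. The MAZ1310 arrays dropped between the times, while the HF arrays at 6 h stayed within the range of the MAZ1310 arrays at 3 h. The change at 6 h was 0.67 ± 0.10 (adjusted p = 0.000282, limma), and at 3 h 0.11 (95% interval -0.11 to 0.33; adjusted p = 0.589, limma).

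The lysine methyltransferase genes Eef1akmt1 and Eef1akmt2 went the other way. Eef1akmt1 read 9.12, 9.14 and 9.06 with MAZ1310 and 8.54, 8.45 and 8.62 with HF at 6 h, a change of -0.57 ± 0.11 (adjusted p = 0.00176, limma). Eef1akmt2 read 9.12, 9.19 and 9.12 with MAZ1310 and 8.54, 8.54 and 8.73 with HF, a change of -0.54 ± 0.10 (adjusted p = 0.00103, limma). In both genes the 3 HF arrays lay below the 3 MAZ1310 arrays, and the groups lay apart in 36.8% of all genes at 6 h. At 3 h the changes were -0.02 (95% interval -0.26 to 0.21) and -0.17 (-0.37 to 0.04), and neither was called. Of the 4 probe sets of Eef1akmt1, 3 were called lower at 6 h and the dimmest was not called, at 0.15.

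The release factors read the stop codon. Etf1 changed by 0.23 (95% interval -0.02 to 0.47; adjusted p = 0.266, limma) at 3 h and by 0.24 (-0.00 to 0.49; adjusted p = 0.199, limma) at 6 h. Its GTPase partner Gspt1 changed by -0.34 (-0.60 to -0.09; adjusted p = 0.0880, limma; 0.0218 with the replicate number as a block) at 3 h and by -0.08 (-0.33 to 0.17; adjusted p = 0.733, limma) at 6 h. Gspt1 read 12.14, 12.10 and 12.61 with MAZ1310 and 11.92, 11.82 and 12.08 with HF at 3 h, and the third MAZ1310 array set most of that spread. This array was the highest of its group for 34 of the 53 members other than Eif2s3y.

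RNA integrity moved with the HF effect, as given above. When the replicate number and the actin difference both entered the fit, 2 members were called at 3 h, Eif2b4 and Eif5a2, both lower. At 6 h 4 were called in that fit, Eif3c higher and Eif2b4, Eif3l and Eif5a2 lower. Over all genes that fit called 185 higher and 234 lower at 3 h, against 514 and 1212 without those terms, and 327 and 583 at 6 h, against 949 and 2136. Eif2s2 then changed by 0.35 (adjusted p = 0.256, limma) at 3 h and 0.38 (adjusted p = 0.135, limma) at 6 h. The share of the T cell marker fall at 6 h in these results was not tested.

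**Figure D4:**
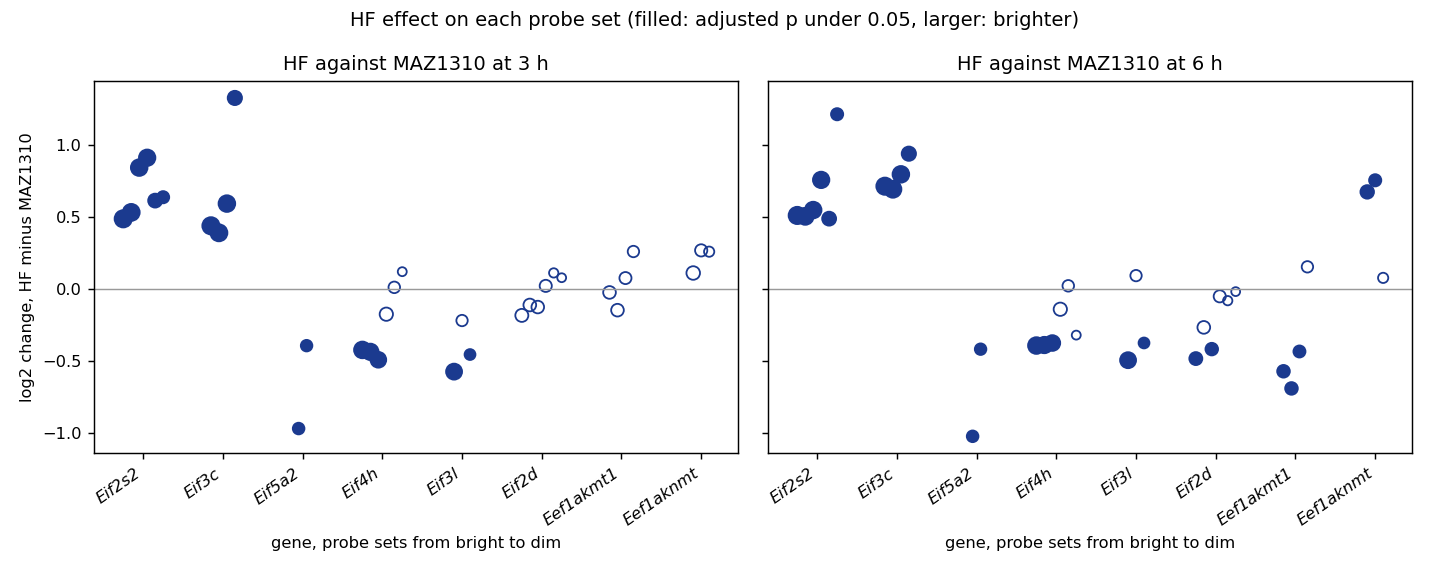
HF effect on every single-symbol probe set of 8 genes, at 3 h (left) and 6 h (right). The y axis is the log2 change (HF minus MAZ1310), probe sets run from bright to dim within a gene, larger points are brighter and filled points passed an adjusted p of 0.05 over all single-symbol probe sets. The 6 probe sets of Eif2s2 and the 4 of Eif3c are all filled and above 0, while those of Eif4h, Eif3l and Eef1akmt1 differ among themselves.

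Of the 39 members with several probe sets, 18 had probe sets on both sides of 0 at 3 h and 14 at 6 h, whatever their size, and the other 15 members had 1 probe set each. Of the called members with another probe set above the dimmest 25% of genes, 5 of 6 had all of these on the same side of 0 at 3 h, the exception being Eif4h. At 6 h it was 8 of 11, the exceptions being Eef1akmt1, Eif3l and Eif4h.

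The change of the HF effect between 3 h and 6 h was tested directly, and no member was called (limma), against 1.80% of all genes; 5 members (of 54) had an unadjusted p under 0.05, as did 12.7% of all genes. The 2 largest were Eef1aknmt, at 0.56 (95% interval 0.25 to 0.88; adjusted p = 0.0717, limma), and Eef1akmt1, at -0.55 (-0.88 to -0.21; adjusted p = 0.0983, limma). With the replicate number as a block Eef1aknmt was called (adjusted p = 0.0424, limma). Without the first MAZ1310 3 h array 1 gene was called with a higher effect at 6 h, and without the second 1 with a lower one. So 9 genes called at 6 h and not at 3 h, and 2 called at 3 h and not at 6 h, were not shown to differ between the times in the fit without the block.

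Between 3 h and 6 h with MAZ1310, 12 members were called, 9 higher and 3 lower, and of all genes 19.8% were called, 12.1% higher and 7.64% lower. Of the 44 bright members 8 were called (18.2%), beside 38.6% of all 4549 bright genes. The largest rises were those of Eef1akmt2 (0.94 ± 0.10, adjusted p = 7.32e-06, limma), Eif5a2 (0.86 ± 0.12, adjusted p = 7.83e-05), Eef1akmt1 (0.74 ± 0.11, adjusted p = 0.000183) and Eif2b3 (0.71 ± 0.12, adjusted p = 0.000434). The falls were those of Eef1aknmt (-0.76 ± 0.10, adjusted p = 7.92e-05, limma), Eif4g3 (-0.41 ± 0.13, adjusted p = 0.0303), a scaffold of eIF4F, and Eif3a (-0.29 ± 0.09, adjusted p = 0.0276), the largest core subunit of eIF3. The calls on Eif4g3 and Eif3a were each lost in 4 of the 12 fits without 1 array (adjusted p 0.0949 to 0.129 and 0.0644 to 0.102, limma). Among these fits were those without the third MAZ1310 3 h or the first or the third MAZ1310 6 h array. The next brightest probe sets changed by -0.15 for Eif4g3 (adjusted p = 0.214, limma) and by 0.09 for Eif3a (adjusted p = 0.567, limma). All 4 probe sets of Eif4g3 were lower (-0.47 to -0.15), and 3 were called. Of the 4 of Eif3a, 3 were lower and 1 was called (range -0.29 to 0.09). In eIF2B 3 of 5 genes rose and in eIF2 none of 3 was called. The 3 falls became 1 without the third MAZ1310 3 h array or without the first or the third MAZ1310 6 h array.

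Between 3 h and 6 h with HF, 7 members were called, all higher, and of all genes 15.6% were called, 8.33% higher and 7.27% lower. Of the 44 bright members 4 were called (9.09%), beside 30.2% of all bright genes. Eif2b3 rose by 0.92 ± 0.12 (adjusted p = 5.43e-05, limma), Eif5a2 by 0.81 ± 0.12 (adjusted p = 0.000171), Eef1akmt2 by 0.56 ± 0.10 (adjusted p = 0.000829) and Eif2b4 by 0.53 ± 0.10 (adjusted p = 0.00200). Of the 7, 6 were also called higher with MAZ1310. The 7 became 4 without the first or the third HF 3 h array or the third HF 6 h array, and 11 without the third MAZ1310 3 h array. These 2 time courses share no array.

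**Figure D5:**
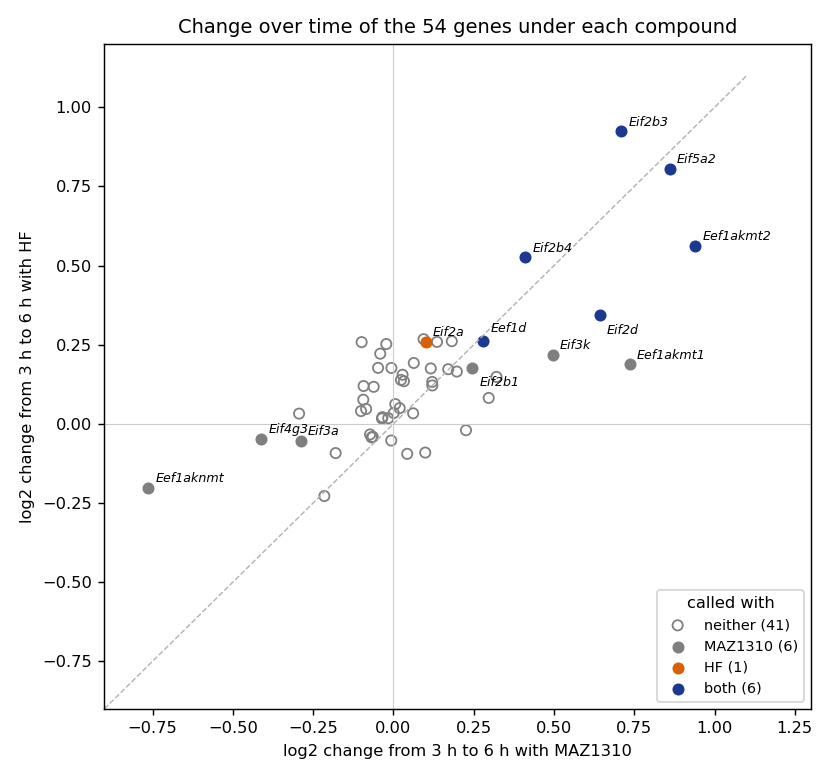
Change from 3 h to 6 h of the 54 genes with MAZ1310 (x axis) and with HF (y axis), both as log2 differences. Blue points were called under both compounds (6 genes), grey points with MAZ1310 only (6), the orange point with HF only (1) and open points under neither (41), and the dashed line marks equal change. Eif5a2, Eif2b3 and Eif2b4 rise under both compounds, while Eef1aknmt falls by 0.76 with MAZ1310 and is at -0.20 with HF.

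Eif5a2 and Eif2b4 thus kept their rise with time under HF from a lower level, whereas the 3 eEF1A methyltransferase genes had smaller fitted changes over time with HF than with MAZ1310. Eef1aknmt changed by -0.20 (95% interval -0.42 to 0.02) with HF against -0.76 with MAZ1310, and Eef1akmt1 by 0.19 (-0.05 to 0.43) against 0.74. The difference between the compounds over time is the same quantity as the change of the HF effect given above, in which neither gene was called without the block.

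Among the 30 further pathway genes, which bind, modify or stand in for these factors or serve in mitochondria, all were measured. At 3 h 6 were called, all lower, and at 6 h 10, of which 3 were higher. That is 20% and 33.3% of the list, beside 9.49% and 17.0% of all genes and 18.3% and 31.0% of bright genes. The kinase Mknk2, which phosphorylates eIF4E, fell the most at 6 h: its arrays lay at 9.90 to 10.04 with HF and 10.98 to 11.23 with MAZ1310, a change of -1.11 ± 0.09 (adjusted p = 7.9e-07, limma), after -0.54 ± 0.09 (adjusted p = 0.00144, limma) at 3 h. It was the 1 gene of the list whose change of effect between the times was called. Tufm, the mitochondrial counterpart of eEF1A, changed by -0.47 ± 0.11 (adjusted p = 0.0107, limma) at 3 h and by -0.73 ± 0.11 (adjusted p = 0.000164, limma) at 6 h. Its exchange factor Tsfm was lower at 6 h (-0.50 ± 0.10, adjusted p = 0.00307, limma). The cytosolic poly(A)-binding gene Pabpc4 (-0.55 ± 0.12, adjusted p = 0.00812, limma) and the helicase gene Dhx29 (-0.46 ± 0.12, adjusted p = 0.0246, limma) were lower at 3 h, and Paip2b, an inhibitor of poly(A)-binding protein, was higher at 6 h (0.47 ± 0.11, adjusted p = 0.00654, limma).

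Promoters were in the RefSeq table for 42 of the 54 genes, with 56 starts, each as 250 bases before and 50 after the start. The motif CACGTG was in those of 12 of the 42 genes (28.6%), against 8.09% of all 27025 genes in the table, and CCAAT was in 31.0% against 41.1%. The element TGATGNAAN was in 2 genes, Eef2k and Eif2s3x (4.76%), against 4.50% of all genes. The member promoters were also richer in G and C, at a median of 62.7% against 52.7%, and CACGTG was not compared at equal G and C. Of the 12 genes with CACGTG, 5 were called with HF, Eif5a2, Eif4h, Eif3f and Eif1b lower and Eef1aknmt higher, and the other 7 were not. Of all 54 members 36 were called at neither time, and a link of the motif to the calls was not tested. The windows around the motif (in capitals) in the 4 called genes other than Eif5a2 are as follows, with up to 20 bases on either side and none past the start, from RefSeq on GRCm38.p6.
Eif4h, chr5:134639480-134639525, minus strand: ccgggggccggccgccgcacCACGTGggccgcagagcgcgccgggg
Eif3f, chr7:108934327-108934372, plus strand: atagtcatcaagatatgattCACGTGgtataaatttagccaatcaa
Eif1b, chr9:120492562-120492605, plus strand: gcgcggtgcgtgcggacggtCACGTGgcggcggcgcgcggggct
Eef1aknmt, chr1:162548467-162548512, minus strand: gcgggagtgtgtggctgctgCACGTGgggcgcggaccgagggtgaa
The motif was thus in promoters of genes called in both directions and of genes that were not called.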

How the data were processed

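The 12 arrays were measured in 4 groups of 3. The authors deposited 1 table of probe set intensity values on a linear scale, made with RMA per the submitters' processing notes; its settings are not stated in these sources. Log2 of the deposited intensities was taken here. Probe sets were named from the platform annotation: 34945 of 45101 had 1 symbol, 932 several, 9160 none and 64 were controls. The brightest single-symbol probe set stood for a gene. R 4.3.3 and limma 3.58.1 (lmFit with 4 group means, eBayes) were run on all 18193 genes, with Benjamini-Hochberg adjustment and calls at an adjusted p under 0.05; the script was tested on simulated data. The number of arrays limits the precision.

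The labels call the replicates biological and do not say what equal numbers share. Same-numbered HF and MAZ1310 arrays deviated together (correlations 0.242 to 0.381 at 3 h and 0.287 to 0.391 at 6 h). From this check alone the numbers were taken as pairs, in the counts over pairs and in the fits with a block. The main fit, with its SEs, intervals and adjusted p-values, did not use the pairs. Between the times the correlations were 0.322 to 0.502 with HF and 0.0289 to 0.252 with MAZ1310. The blocked value is given where it changes a call.

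The members, the lists and the tests were chosen with earlier results of these data known. Named members are a fixed core (Eif2s2, Eif2s3x, Eif2b1 to Eif2b5, Eif4a1, Eif4e, Eif4g1, Eif5, Eef1a1, Eef2, Etf1, Gspt1), the 12 called genes with the largest change for each HF comparison, 4 in each direction for each time comparison, the largest change of a complex without a call, and 4 called pathway genes for each HF comparison. Promoter sequences come from RefSeq (GRCm38.p6), with Python 3.11.15.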

Additional observations from a re-analysis of the deposited data

How the results depend on the processing

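Alternatives were other normalization, filters, probe sets, samples and covariates; leaving out the arrays numbered 2 and the next brightest probe set were chosen after seeing the data. Counts below are higher and lower calls among the 54 genes. With the replicate number as a block they were 2 and 9 at 3 h, 6 and 11 at 6 h, 1 and 0 for the change of effect, 11 and 4 over time with MAZ1310 and 9 and 0 with HF; beyond the calls given above it added Eif3c and Eif3m (HF over time) and Eif1b, Eif4e2 and Eif5b (MAZ1310 over time), and ended none. With the block and the actin difference they were 0 and 2, 1 and 3, 1 and 0, 6 and 1, and 3 and 0. With only the groups compared in the fit, 3 h had 4 lower and MAZ1310 over time 1 lower. Without the arrays numbered 2 they were 1 and 2 at 3 h, 3 and 7 at 6 h, 9 and 1 over time with MAZ1310 and 4 and 0 with HF. With suffixed probe sets left out (43 genes) 6 were lower at 6 h, and 5 (MAZ1310) and 3 (HF) higher over time. Cyclic loess gave 1 higher for the change of effect, and at 3 h 3 and 5 for the members and 728 and 1054 for all genes, against 514 and 1212. The mean of all probe sets gave 1 lower over time with HF. Without 1 array the counts ran over 2 to 3 and 4 to 13 at 3 h, 3 to 6 and 10 to 11 at 6 h, 0 to 1 and 0 to 1 for the change of effect, 6 to 9 and 1 to 4 with MAZ1310, and 4 to 11 and 0 to 0 with HF. With the next brightest probe set Eif3l at 6 h was 0.093 (adjusted p = 0.598, limma) and Eif3a over time with MAZ1310 0.087 (adjusted p = 0.567, limma), both turned in sign; the calls on Eif2a and Eif3l at 3 h, Eif2d at 6 h and Eif4g3 over time with MAZ1310 were lost (adjusted p 0.0568 to 0.214, limma). For these settings the cause was not tested, except that fewer genes or arrays entered some fits. The number of arrays, 3 a group, limits the precision.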
